A study of Mus musculus with 6 samples.

Results

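The histone cluster genes were taken as every probe, other than control spots, whose gene name on the array begins with Hist1h, Hist2h, Hist3h or Hist4h. The rule found 54 of the 55681 probes, for 49 gene names: 6 probes for H1, 15 for H2A, 12 for H2B, 8 for H3 and 13 for H4. RNA came from back skin of 6 male C57BL/6 mice aged 6 to 8 weeks, all shaved on the back. In the UVB group (3 mice) exposure began 2 days after shaving and was given under anaesthesia at 180 mJ/cm2, with 3 sessions a week over 2 weeks, whereas the control group (3 mice) was kept dark and received no UVB. Each mouse gave 1 array with 1 colour (Cy3), started from 0.2 µg of RNA, and the skin layers sampled, the time from the last exposure to sampling and any anaesthesia of the controls are not given in the labels. All values are log2 processed signals minus the 75th percentile of the same array, so that 0 is the array's own 75th percentile, and a fold change is UVB minus control with its limma standard error.

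Histones package DNA: a pair each of H2A, H2B, H3 and H4 forms the nucleosome core, and H1 binds the linker DNA where the strand enters and leaves. The cluster genes supply the histones that a cell needs while it copies its DNA, so their mRNAs accumulate in S phase and are broken down when replication stops. Most of these mRNAs end in a short stem-loop in place of a poly(A) tail. The stem-loop is bound by the protein Slbp, which is needed for processing and translation of the mRNA. Some cluster genes also give longer, polyadenylated transcripts, known from differentiated cells, which run past the stem-loop. In skin, dividing cells lie in the basal epidermis and in growing hair follicles. The labels do not name the primer of the labelling reaction, so which kind of transcript was copied cannot be told from them.

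Close relationship among family members sets what a probe can tell apart, and the 4 probes at the end of H2A coding sequences show it. They are printed 5′ to 3′ in the sense direction from the scanner files, with capitals where a probe carries a base that is not shared by at least 3 of the 4. Hist1h2af lies at chr13:23626113-23626172 on the + strand, Hist1h2ak at chr13:21845304-21845363 on the - strand, Hist1h2an at chr13:21878695-21878754 on the - strand and Hist2h2aa2 at chr3:96049837-96049896 on the + strand, all in mm9.
Hist1h2af: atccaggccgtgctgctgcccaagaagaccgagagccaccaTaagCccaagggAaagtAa
Hist1h2ak: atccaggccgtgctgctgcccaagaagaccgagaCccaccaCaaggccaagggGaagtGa
Hist1h2an: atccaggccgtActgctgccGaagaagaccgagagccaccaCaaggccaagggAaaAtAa
Hist2h2aa2: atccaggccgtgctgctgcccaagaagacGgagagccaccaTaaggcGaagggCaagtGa
Each of these probes shared 55 of its 60 bases with another of them. Over all members, 7 of 54 probes (5 for H2A and 2 for H4) matched the probe of another gene at 50 or more bases. A further 3, for Hist1h2ag, Hist1h4d and Hist1h4j, matched another gene's probe at 90% or more of an overlap of at least 40 bases. Values of such probes cannot be assigned to 1 gene with certainty. Probes were compared only with each other, because no transcript sequences were at hand. Whether the remaining probes, the Hist1h2ak start probe among them, read 1 gene alone was therefore not tested.

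Of the other probes, 8 covered all or part of the stem-loop, which is shown in capitals with a few bases on either side. Those of Hist1h2ab and Hist1h2ae hold only a part of it. In mm9 they lie at chr13:23843434-23843451 (Hist1h2ab, + strand), chr13:23662530-23662548 (Hist1h2ae, - strand), chr13:23853756-23853781 (Hist1h3a, - strand), chr13:23627751-23627778 (Hist1h3g, + strand), chr13:21874784-21874811 (Hist1h3i, - strand), chr13:21903991-21904019 (Hist1h4m, + strand), chr3:96049949-96049977 (Hist2h2aa1, + strand) and chr3:96074087-96074115 (Hist2h2bb, + strand).
Hist1h2ab: aaacaaaGGCTCTTTTCA
Hist1h2ae: CTTTTCAGAGCCattcact
Hist1h3a: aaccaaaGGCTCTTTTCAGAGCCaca
Hist1h3g: ctttaaaGGCTCTTCTTAGAGCCaccca
Hist1h3i: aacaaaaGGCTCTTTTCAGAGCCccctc
Hist1h4m: aactaaaGGCCCTTTTCAGGGCCatccaa
Hist2h2aa1: taaaaaGGCTCTTTTCAGAGCCacccact
Hist2h2bb: cccaaaaGGCTCTTTTCAGAGCCacttta
Of the 8 probes, 6 end in the stem-loop or within 6 bases after it. The probes of Hist2h2aa1 and Hist1h2ae run on for 38 and 48 bases beyond it.

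The 75th percentile of the processed signal was 363, 519 and 484 in controls and 352, 315 and 302 in UVB replicates 1, 2 and 3. Spots well above background made up 60.9%, 63.3% and 61.7% in controls and 59.6%, 54.9% and 59.1% in UVB mice. Every UVB array was thus dimmer than every control array, and the part of this in the values was not tested. Arrays of a group correlated at 0.979 to 0.991 and arrays of different groups at 0.954 to 0.973 over all tested probes. Only probes that the scanner software rated well above background in 3 or more of the 6 mice entered the test, which left 33767 probes, among them 52 of the 54 histone probes. The untested ones, for Hist1h1d and the second Hist4h4 probe, were not well above background on any array. No histone probe was saturated or carried an outlier flag. The precision of every value is limited by the 3 mice in a group.

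Most histone cluster probes read lower after UVB, but few passed the threshold after adjustment over all tested probes. Of the 52 tested probes, 39 had a fold change below 0, against 52.6% of all tested probes, and the median was -0.36, against -0.03 over all probes. At an adjusted p under 0.05 (limma, Benjamini-Hochberg over all 33767 probes) 2 probes were lower, for Hist1h1a and Hist1h2ak, and 2 were higher, for Hist2h2aa1 and Hist2h3c2-ps. This is 3.85% in each direction, against 6.1% of all probes called lower and 5.07% called higher. The groups did not overlap for 20 probes with all UVB mice lower (38.5%, against 21.5% of all probes) and for 6 with all UVB mice higher (11.5%, against 15.7%). At an unadjusted p under 0.05, 20 probes were lower and 7 were higher, where 16.9% and 13.3% of all probes were. Scaling by the median or background correction by normexp moved the median of all probes to -0.13 and 0.12, and 38 or 39 of the 52 histone probes lay below the all-probe median under the main scaling, these 2, quantile normalization and the deposited table. In bulk skin, fewer cells of a type and less RNA per cell cannot be told apart.

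**Figure D1:**
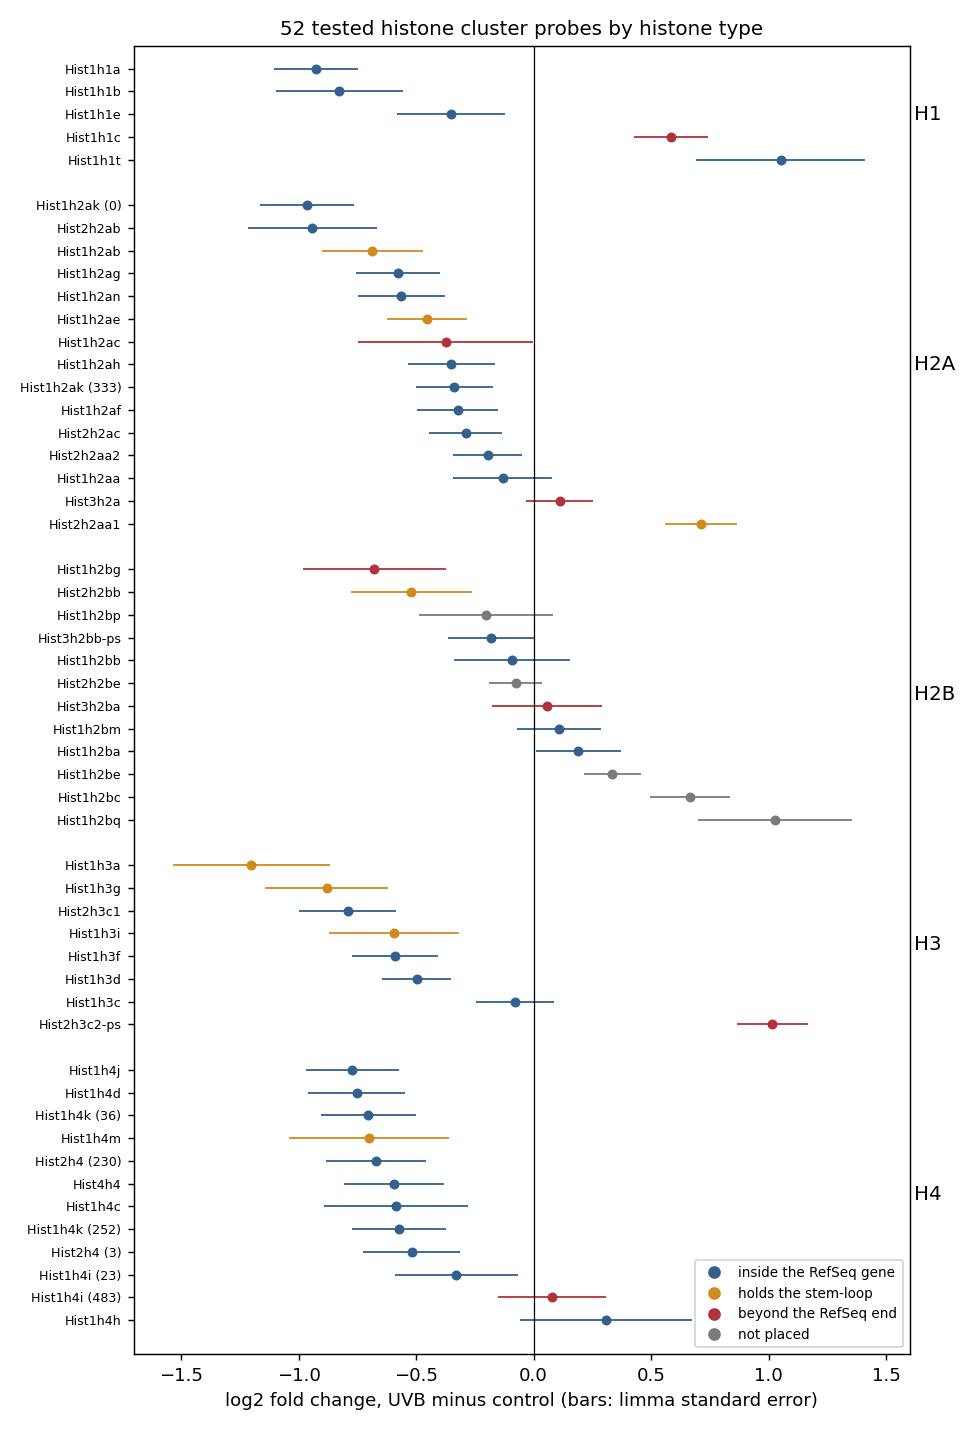
Log2 fold change (UVB minus control, x axis) of the 52 tested probes, 1 row a probe, with bars for the limma standard error, grouped by histone type and coloured by the place of the probe; numbers in brackets tell probes of 1 gene apart by their start in the record. H2A, H3 and H4 lie mostly left of 0, with medians of -0.35, -0.59 and -0.59, while H2B is split 6 to 6 around a median of -0.01.

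The 5 tested linker histone probes spread from -0.93 to 1.05 around a median of -0.35, with 3 below 0 and 2 above. Hist1h1a (now H1f1), a replication-dependent linker histone, was the H1 probe called. Control mice read 0.05, 0.46 and 0.33 and UVB mice -0.38, -0.75 and -0.81. All UVB mice lay below all controls, by -0.93 ± 0.18 (adjusted p = 0.0271), a 1.90-fold lower signal. The probe lies inside the gene, at chr13:23855888-23855947 of mm9 on the + strand, and is printed because its gene is 1 of the 4 called.
Hist1h1a: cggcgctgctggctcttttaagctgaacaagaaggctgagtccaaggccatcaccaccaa
Hist1h1b (H1f5), another replication-dependent linker histone, read 3.74, 3.82 and 3.52 in controls and 3.32, 2.98 and 2.30 in UVB mice. The groups did not overlap there either, but the wider spread among the UVB mice left -0.83 ± 0.27 at an adjusted p of 0.0983. Hist1h1e (H1f4), a linker histone common in somatic cells, gave -0.35 ± 0.23 (adjusted p = 0.351) with overlapping groups. Hist1h1c (H1f2), also a somatic linker histone, had the opposite sign: controls read 2.31, 2.16 and 2.57 and UVB mice 3.02, 2.99 and 2.77. Its groups did not overlap, and the difference of 0.58 ± 0.16 missed the threshold at an adjusted p of 0.0623. The largest positive H1 value belonged to Hist1h1t (H1f6), the testis linker histone, at 1.05 ± 0.36. Control mice read -0.75, -1.55 and -1.85 there and UVB mice -0.19, 0.07 and -0.87, so the groups overlapped, with an adjusted p of 0.109.

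H2A was the type with most probes, and 13 of 15 had a value below 0, with a median of -0.35 and a range from -0.96 to 0.71. Only 1 probe was called lower and 1 higher (6.67% each, against 6.1% and 5.07% of all probes). All UVB mice were lower for 6 probes (40%, against 21.5% of all probes) and higher for 1 (6.67%, against 15.7%). The called lower probe covers the start of Hist1h2ak (H2ac15) at chr13:21845637-21845696 of mm9 on the - strand, and its ATG start codon is in capitals.
Hist1h2ak: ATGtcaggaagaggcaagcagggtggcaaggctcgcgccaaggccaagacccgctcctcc
Controls read 5.61, 5.76 and 5.33 and UVB mice 4.75, 4.80 and 4.26. The groups were apart by -0.96 ± 0.20 (adjusted p = 0.0327), or 1.95-fold. The second Hist1h2ak probe, at the end of the coding sequence shown above, read 8.95, 8.90 and 8.65 in controls and 8.55, 8.68 and 8.26 in UVB mice. There the groups overlapped, and the difference was -0.34 ± 0.16 (adjusted p = 0.221), the same sign as the start probe; the difference between both was not tested.

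The H2A probes that share most of their bases gave a narrow range of values. Hist1h2af, Hist1h2ah, Hist2h2ac and Hist2h2aa2 gave differences of -0.32, -0.35, -0.29 and -0.20, all with overlapping groups. Hist1h2ah read 9.29, 9.13 and 8.83 in controls and 8.77, 8.95 and 8.49 in UVB mice (adjusted p = 0.258). Hist1h2an and Hist1h2ag gave -0.56 ± 0.18 and -0.58 ± 0.18 with groups that did not overlap (adjusted p = 0.101 and 0.0890). Hist1h2ab, whose probe ends in the stem-loop, read 6.17, 6.12 and 5.71 in controls and 5.48, 5.51 and 4.95 in UVB mice, a difference of -0.69 ± 0.21 (adjusted p = 0.0891). Hist2h2ab gave -0.94 ± 0.28 (adjusted p = 0.0772), but its probe cleared the background in only 2 of the 3 UVB mice. The testis gene Hist1h2aa gave -0.13 ± 0.21.

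Against this stood Hist2h2aa1 (H2ac18), which was called higher. Its probe read 2.90, 2.70 and 3.08 in controls and 3.57, 3.77 and 3.48 in UVB mice. All UVB mice lay above all controls, by 0.71 ± 0.15 (adjusted p = 0.0358), a 1.64-fold higher signal. The probe named for the near-identical Hist2h2aa2 lies on the same strand of chromosome 3, at chr3:96049837-96049896, and the Hist2h2aa1 probe at chr3:96049949-96050008. RefSeq has the Hist2h2aa2 gene on the opposite strand, so whether these probes read 1 gene or both could not be checked. The first lies in coding sequence and the second starts at the stem-loop and continues past it. The probe named for Hist2h2aa2 read 8.73, 8.67 and 8.40 in controls and 8.40, 8.54 and 8.28 in UVB mice, a difference of -0.20 ± 0.15 (adjusted p = 0.418). Neighbouring stretches of sequence thus gave opposite signs; the difference between these probes was not tested.

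**Figure D2:**
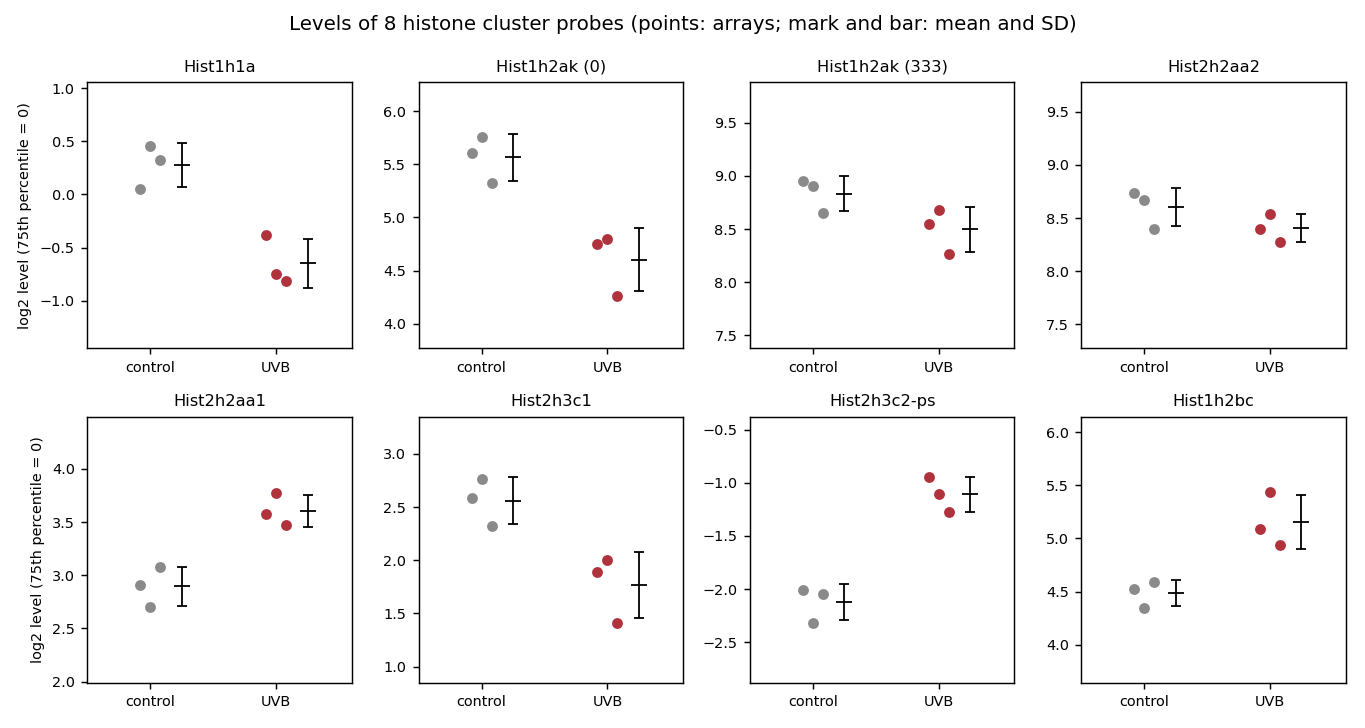
Level on each array (log2, 75th percentile of the array at 0) of 8 probes, with control mice in grey and UVB mice in red and the mean and SD of each group beside the points; each panel has its own level range. Hist1h1a, the Hist1h2ak start probe and Hist2h3c1 are lower in all UVB mice, Hist2h2aa1, Hist2h3c2-ps and Hist1h2bc are higher in all UVB mice, and the groups overlap for the second Hist1h2ak probe and for Hist2h2aa2.

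H2B showed no common direction. Of 12 probes 6 lay below 0 and 6 above, with a median of -0.01, and limma called none in either direction. At an unadjusted p under 0.05 none was lower and 3 were higher, where 16.9% and 13.3% of all probes were. The same 3 had all UVB mice higher (25%, against 15.7% of all probes). These were Hist1h2bc (H2bc4), Hist1h2be (H2bc6) and Hist1h2bq (H2bc23). Hist1h2bc read 4.52, 4.35 and 4.59 in controls and 5.09, 5.44 and 4.94 in UVB mice, all above the controls, and missed the threshold narrowly at 0.67 ± 0.17 (adjusted p = 0.0544). Its RefSeq model spans 8282 bases, far longer than a coding unit of this family. Hist1h2be gave 0.33 ± 0.12 (adjusted p = 0.124). Hist1h2bq gave the largest positive value, 1.03 ± 0.33 (adjusted p = 0.0942), from a dim probe that cleared the background in 1 of 3 control mice and 2 of 3 UVB mice.

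The lowest H2B value was that of Hist1h2bg (H2bc8). Controls read -3.10, -3.54 and -2.91 and UVB mice -3.28, -3.97 and -4.33, which overlapped, with a difference of -0.68 ± 0.30 (adjusted p = 0.192). Hist2h2bb, whose probe holds the stem-loop, gave -0.52 ± 0.26 (adjusted p = 0.228). The other H2B probes lay between -0.20 and 0.19, among them the testis gene Hist1h2ba at 0.19 ± 0.18. Hist1h2bc, Hist1h2be and Hist1h2bg code for nearly the same protein, but none of their probes matched another gene's probe at 50 bases.

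H3 had 7 of 8 probes below 0, a median of -0.59 and the widest range of the core types. None was called lower by limma, although 5 were lower at an unadjusted p under 0.05 and in all UVB mice (62.5%). Over all probes these shares were 16.9% and 21.5%. Hist1h3a (H3c1) had the lowest value of any histone probe, -1.20 ± 0.33. Controls read -1.31, -1.18 and -1.71 and UVB mice -2.01, -2.52 and -3.27, with no overlap. The spread among the UVB mice was large, and the adjusted p was 0.0675. Hist1h3g, again a stem-loop probe, gave -0.88 ± 0.26 (adjusted p = 0.0804). Hist1h3d was tighter: controls read 6.12, 6.16 and 6.06 and UVB mice 5.72, 5.76 and 5.37, which gave -0.50 ± 0.15 (adjusted p = 0.0792).

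On chromosome 3, Hist2h3c1 (H3c14) and Hist2h3c2-ps (H3c15) gave opposite signs. Hist2h3c1 read 2.59, 2.76 and 2.32 in controls and 1.89, 2.00 and 1.41 in UVB mice, lower in all, by -0.79 ± 0.21 (adjusted p = 0.0575). Hist2h3c2-ps read -2.01, -2.32 and -2.04 in controls and -0.95, -1.11 and -1.27 in UVB mice. It was higher in all UVB mice by 1.02 ± 0.15 (adjusted p = 0.0139), or 2.02-fold, the smallest p of the histone probes. The array's name marks it as a pseudogene, while the current RefSeq table lists it under the name of a protein-coding H3 gene. The probe, at chr3:96042034-96042093 of mm9 on the - strand, starts at base 957 of its record (counted from 0), and the current RefSeq gene is 649 bases long.

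H4 had the narrowest range of the 5 types, from -0.77 to 0.31. Of 12 tested probes 10 lay below 0, and the median was -0.59. All UVB mice were lower for 7 probes (58.3%, against 21.5% of all probes) and higher for none (against 15.7%). Limma called none, with 7 lower and 0 higher at an unadjusted p under 0.05, where 16.9% and 13.3% of all probes were. Hist1h4j (H4c11) had the lowest value: controls read 1.96, 1.73 and 1.61 and UVB mice 1.28, 1.05 and 0.66, a difference of -0.77 ± 0.20 (adjusted p = 0.0554). Its probe matched a Hist1h4k probe at 46 of 48 overlapping bases. Hist1h4k (H4c12) had 2 probes, and both were lower in all UVB mice, at -0.70 ± 0.20 and -0.57 ± 0.20 (adjusted p = 0.0741 and 0.115). The second read 6.76, 6.48 and 6.34 in controls and 6.19, 6.06 and 5.61 in UVB mice. Both Hist2h4 probes were lower as well, at -0.52 ± 0.21 and -0.67 ± 0.21 (adjusted p = 0.152 and 0.0935).

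The positive H4 values were small against their errors. Hist1h4h gave 0.31 ± 0.37 (adjusted p = 0.618), with control mice from -2.86 to -1.58 around UVB mice from -2.18 to -1.52. Hist1h4i (H4c9) gave both signs: the probe near the start of its record read -0.33 ± 0.26 and the probe beyond the current gene end 0.08 ± 0.23 (adjusted p = 0.447 and 0.850). Both had overlapping groups. All H4 genes code for nearly the same protein, and the first Hist1h4k probe shared 52 of 60 bases with that of Hist1h4c.

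The place of a probe in its transcript record went along with the sign of its value. This grouping was made after the values had been seen and carries no test. Probes inside the current RefSeq gene (32 tested) had 28 values below 0 and a median of -0.51. All UVB mice were lower for 16 of them (50%, against 21.5% of all probes) and higher for 0 (against 15.7%). The 4 above 0 were those of Hist1h1t, Hist1h2ba, Hist1h2bm and Hist1h4h. Probes holding the stem-loop (8) had 7 below 0 and a median of -0.64. That median was -0.38 without UVB replicate 3 and -0.36 with normexp, where probes inside the gene were at -0.355 and -0.431. The one above 0 was Hist2h2aa1. Of the stem-loop probes, 4 were lower in all UVB mice (50%, against 21.5% of all probes) and 1 was higher (12.5%, against 15.7%). Among probes that begin beyond the end of the RefSeq gene, 7 were tested, with 2 below 0 (Hist1h2ac and Hist1h2bg), 5 above 0 and a median of 0.08. A further 5, all H2B, could not be placed because the RefSeq model is longer than 1000 bases, and they had 2 below 0 and a median of 0.33. With median scaling the median beyond the gene end was -0.02, against -0.13 over all probes, and with normexp it was 0.07, against 0.12 over all probes, so its sign is not settled. Of the 6 histone probes that were higher in all UVB mice, 5 belonged to these last 2 classes and the sixth was Hist2h2aa1. Among the 12 tested probes of these 2 classes the 5 make up 41.7%, against 15.7% of all probes. None of the 12 was lower in all UVB mice (against 21.5%). Place and histone type overlap, since 7 of the 12 H2B probes were in these 2 classes, and the classes cannot be told apart from type there.

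**Figure D3:**
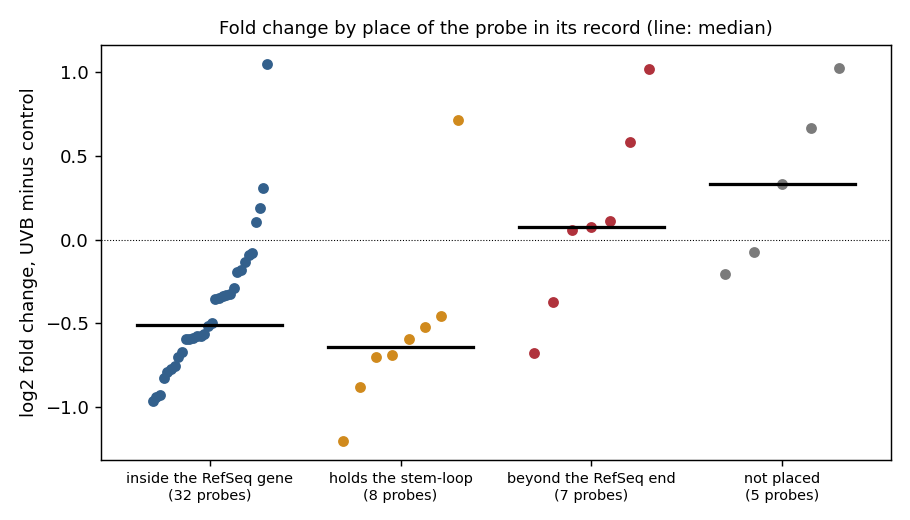
Log2 fold change (UVB minus control, y axis) of the 52 tested histone probes by place of the probe in its record, with a line at the median. Probes inside the gene and at the stem-loop have medians of -0.51 and -0.64, and probes beyond the gene end and those not placed have medians of 0.08 and 0.33.

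The lower values were shared among UVB mice but not equally. Measured from the control mean of each probe, the median histone deviation was 0.12, 0.00 and -0.15 in the controls and -0.23, -0.36 and -0.61 in UVB replicates 1, 2 and 3. UVB replicate 3 was the lowest UVB mouse for 44 of 52 probes. The H4 medians were -0.23, -0.57 and -0.99 in the UVB mice and those of H3 -0.39, -0.47 and -0.97, whereas H2B read 0.19, -0.04 and -0.11. Without UVB replicate 3, 37 of 52 probes were below 0 and the median over all histone probes was -0.32. The median of H3 was then -0.43 and that of H4 -0.40, and those of H2A and H1 were -0.23 and -0.34. No probe was then called lower: Hist1h1a stood at -0.84 (adjusted p = 0.0673) and the Hist1h2ak start probe at -0.79 (adjusted p = 0.0585). Hist2h2aa1 also missed the threshold, at 0.78 (adjusted p = 0.0585), and Hist2h3c2-ps was called at 1.1 (adjusted p = 0.0221). Leaving out any 1 mouse ended the calls of the Hist1h2ak start probe (-1.08 to -0.79, adjusted p from 0.0536 to 0.118) and of Hist2h2aa1 (0.62 to 0.80, adjusted p from 0.0577 to 0.128). The call of Hist1h1a also ended when control replicate 2 (-0.84, adjusted p = 0.105), control replicate 3 (-0.90, adjusted p = 0.0785) and, separately, UVB replicate 2 (-0.88, adjusted p = 0.0703) were omitted. Hist2h3c2-ps lost its call when control replicate 2 was omitted (0.92, adjusted p = 0.0597) and when UVB replicate 1 was omitted (0.94, adjusted p = 0.0535).

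**Figure D4:**
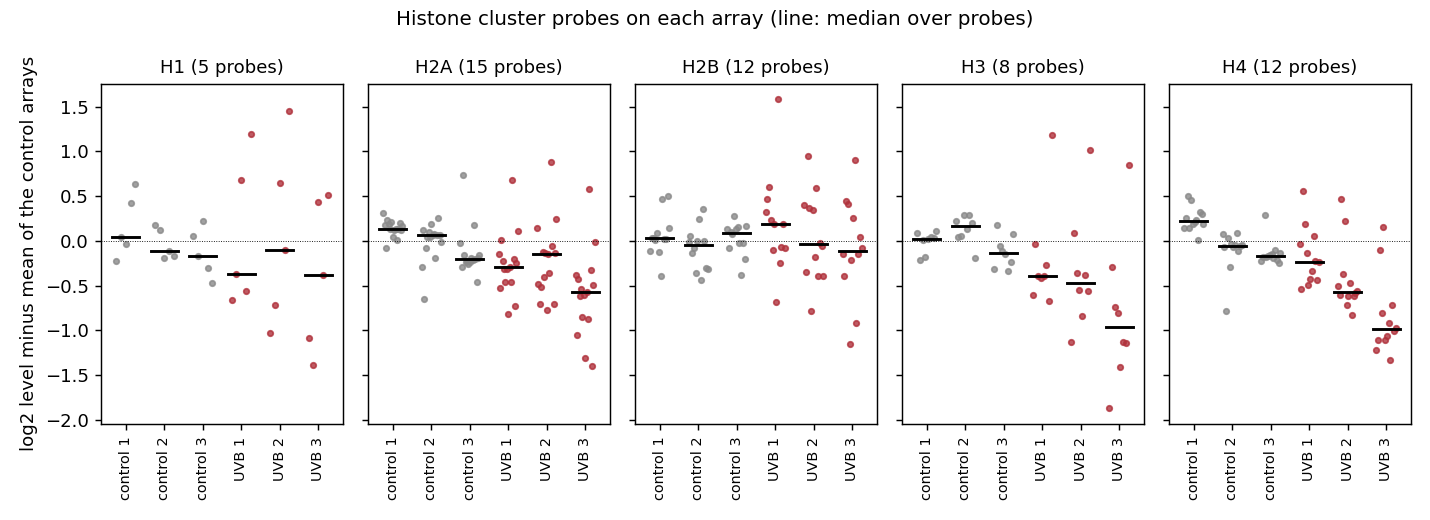
Level of each tested histone probe on each array, as the log2 difference from the mean of the 3 control arrays (y axis), 1 panel a histone type, with a line at the median over probes. For H3 and H4 the 3 UVB medians lie below the 3 control medians, from -0.39 to -0.97 and from -0.23 to -0.99, while the H2B medians of both groups lie between -0.11 and 0.19.

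The genes lie in blocks, and the lower values were spread over the large ones. On chromosome 13 of mm9, 15 probes fell at chr13:21814057-22133198 and 23 at chr13:23622937-24026527. The first block had 12 of 15 values below 0 (median -0.56) and the second 16 of 22 tested (median -0.36). The Hist1h2ag probe is in neither count, because the array file splits its position over 59681 bases of the + strand and RefSeq has the gene on the - strand of the same chromosome. The Hist1h2bq probe, counted in the first block, is also on the strand opposite to its RefSeq gene. On chromosome 3, at chr3:96024171-96074115, 8 of 10 were below 0 (median -0.40), and both called higher probes belong to this block. The 3 probes at chr11:58762964-58769013, for Hist3h2a, Hist3h2ba and Hist3h2bb-ps, lay between -0.18 and 0.11. The tested Hist4h4 probe, at chr6:136752681-136752740, gave -0.59 ± 0.21 (adjusted p = 0.123) and was lower in all UVB mice.

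Promoter sequence was available for 43 of the 49 genes from RefSeq (GRCm38.p6), and 4 short elements known from histone promoters were searched for on both strands of the 250 bases before the start; the motifs do not overlap one another in letters. The TATA box TATAAA was in 22 promoters (51.2%, against 12.4% of 32851 mouse promoters) and CCAAT in 35 (81.4%, against 33.8%). Every H1, H2A and H2B promoter held CCAAT, against 4 of 6 for H3 and 2 of 8 for H4. The octamer ATTTGCAT, which Pou2f1 binds in H2B promoters, was in 7 of 14 H2A and 6 of 9 H2B promoters and in none of the others (30.2% in all, against 1.6%). The H1 box AAACACA was in 5 of 6 H1 promoters (20.9% in all, against 6.25%). The H1 promoter without that box was the one of Hist1h1a. The promoters of 3 called genes and, for the H1 box, of Hist1h1b are shown over the 150 bases before the start, with these elements in capitals. They lie at chr13:23763518-23763667 (Hist1h1a, + strand), chr13:21753913-21754062 (Hist1h2ak, - strand), chr3:96245347-96245496 (Hist2h2aa1, + strand) and chr13:21780626-21780775 (Hist1h1b, - strand) of GRCm38.
Hist1h1a: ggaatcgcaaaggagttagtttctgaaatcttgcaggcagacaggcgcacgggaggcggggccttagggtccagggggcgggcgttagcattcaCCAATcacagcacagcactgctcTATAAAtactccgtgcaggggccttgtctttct
Hist1h2ak: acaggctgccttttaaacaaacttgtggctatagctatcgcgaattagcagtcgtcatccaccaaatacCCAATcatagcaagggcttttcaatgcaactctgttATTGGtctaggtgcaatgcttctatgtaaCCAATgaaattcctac
Hist2h2aa1: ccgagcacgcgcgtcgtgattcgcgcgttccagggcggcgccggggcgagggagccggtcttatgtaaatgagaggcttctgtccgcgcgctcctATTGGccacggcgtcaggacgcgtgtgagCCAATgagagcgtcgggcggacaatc
Hist1h1b: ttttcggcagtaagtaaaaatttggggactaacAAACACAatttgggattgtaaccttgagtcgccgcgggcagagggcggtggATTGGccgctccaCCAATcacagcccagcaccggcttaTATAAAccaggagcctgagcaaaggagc
The promoters of Hist1h2ak and Hist2h2aa1, whose probes were called in opposite directions, both held CCAAT and neither held TATAAA in these 250 bases. That of Hist2h3c2-ps held none of the 4 elements.

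Genes that act on histones were then read from lists, with the tested probe of the highest mean level for each gene. Most replacement variants are made throughout the cell cycle from polyadenylated mRNAs. The listed variants had 9 of 13 values below 0 and a median of -0.26, and limma called none at these probes. Over all probes, 6.1% were called lower and 5.07% higher. A second probe of H2afv, another H2A.Z variant, was called lower at -0.61 ± 0.14 (adjusted p = 0.0428), against -0.53 ± 0.20 at the probe used. At an unadjusted p under 0.05, 4 of the variants were lower and 1 higher, where 16.9% and 13.3% of all probes were. H2afz, the H2A.Z variant found at promoters, gave -0.53 ± 0.17 (adjusted p = 0.0999) and H3f3b, which codes for H3.3, -0.35 ± 0.12 (adjusted p = 0.108). H3f3a, which also codes for H3.3, gave 0.018 ± 0.142 (adjusted p = 0.95) and, at a second probe, 0.028 ± 0.136. H2afx, the variant that is phosphorylated at DNA breaks, gave -0.39 ± 0.22 (adjusted p = 0.281). The linker variant H1f0, typical of cells that have stopped dividing, gave -0.48 ± 0.22 (adjusted p = 0.201).

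The machinery that makes histone mRNA had 15 genes tested of 17 listed, of which 2 were called lower (13.3%, against 6.1% of all probes), none higher (against 5.07%) and 13 were below 0 (median -0.30). At an unadjusted p under 0.05, 5 were lower and 0 higher, where 16.9% and 13.3% of all probes were. Slbp, the stem-loop binding protein itself, read 0.05, 0.33 and 0.50 in controls and -0.53, -0.35 and -0.75 in UVB mice. It fell in all UVB mice by 0.84 on the log2 scale (SE 0.18, adjusted p = 0.0339). Lsm11, part of the U7 snRNP that cuts histone pre-mRNA, also fell, with a difference of -0.59 ± 0.14 (adjusted p = 0.0421). A second Slbp probe was lower as well, at -0.60 ± 0.14 (adjusted p = 0.0450). With 1 mouse left out, 1 gene of the list was called without control replicate 1 and 0 without any of the other 5. Npat, the coactivator of histone transcription, was not tested because none of its probes passed the filter.

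Of 23 tested histone chaperones 2 were called lower (8.7%, against 6.1% of all probes) and 0 higher (against 5.07%), and 17 were below 0 with a median of -0.25. At an unadjusted p under 0.05, 11 chaperones were lower and 0 higher, where 16.9% and 13.3% of all probes were. Asf1b, the H3-H4 chaperone of dividing cells, read 2.15, 2.52 and 2.09 in controls and 1.21, 1.32 and 0.96 in UVB mice, and fell by 1.08 (SE 0.17, adjusted p = 0.0165). Chaf1b, a subunit of the assembly factor CAF-1 that loads histones behind the replication fork, differed by -0.84 ± 0.18 (adjusted p = 0.0346). Counting every tested probe, 5 of the 23 chaperones had one called lower and 0 had one called higher. The other three were Rbbp4, a subunit of CAF-1 (-0.92 ± 0.12, adjusted p = 0.00909, against -0.42 at the probe used), Nap1l1, an H2A-H2B chaperone (-0.58 ± 0.14, adjusted p = 0.0450, against -0.35), and Hjurp. Hjurp, which loads the centromeric H3 variant, gave -0.66 ± 0.14 (adjusted p = 0.0371) and -0.60 ± 0.15 (adjusted p = 0.0535) at 2 other probes, opposite in sign to the 0.22 ± 0.28 of the probe used. With 1 mouse left out, 0 chaperones were called without control replicate 2 or UVB replicate 1, 1 without control replicate 3, UVB replicate 2 or UVB replicate 3, and 2 without control replicate 1.

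Of the 34 tested S phase and proliferation genes, 14 were called lower (41.2%, against 6.1% of all probes) and 0 higher (against 5.07%), 33 were below 0 and the median was -0.69. At an unadjusted p under 0.05, 30 of these genes were lower and 0 higher, where 16.9% and 13.3% of all probes were. The lists were not tested against each other or against the histone probes. With 1 mouse left out, 2 genes were called without control replicate 2, 4 without UVB replicate 1, 5 without control replicate 3, 8 without control replicate 1, 9 without UVB replicate 3 and 11 without UVB replicate 2. Gins2, part of the replicative helicase complex, read 0.50, 0.39 and 0.41 in controls and -1.07, -0.68 and -0.95 in UVB mice (-1.33 ± 0.14, adjusted p = 0.00555). Of the helicase subunits, Mcm2 differed by -1.11 ± 0.14 (adjusted p = 0.00797), Mcm6 by -1.03 ± 0.14 and Mcm5 by -1.13 ± 0.17. Pcna, the sliding clamp of the polymerases, differed by -0.76 ± 0.13 (adjusted p = 0.0194), and Uhrf1, which keeps DNA methylation through replication, by -0.83 ± 0.14. Mki67, the usual marker of cycling cells, gave -0.14 ± 0.18 (adjusted p = 0.647), with controls from 4.41 to 4.89 and UVB mice from 4.27 to 4.56. A second Mki67 probe gave -0.45 ± 0.18 (adjusted p = 0.156). Cdk1, the kinase that drives mitosis, gave -0.81 ± 0.21 (adjusted p = 0.0598) at the probe used and 0.87 ± 0.24 (adjusted p = 0.0659) at a second probe. Counting every tested probe, 15 of the 34 genes had one called lower and 0 had one called higher. The further gene was Ccnb1, at -0.58 ± 0.23 at the probe used. Its other probes gave -0.93 ± 0.21 (adjusted p = 0.0413) and -0.004 ± 0.186. The gene above 0 at the probe used was E2f2, a transcription factor of S phase entry, at 0.36 ± 0.15 (adjusted p = 0.175).

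**Figure D5:**
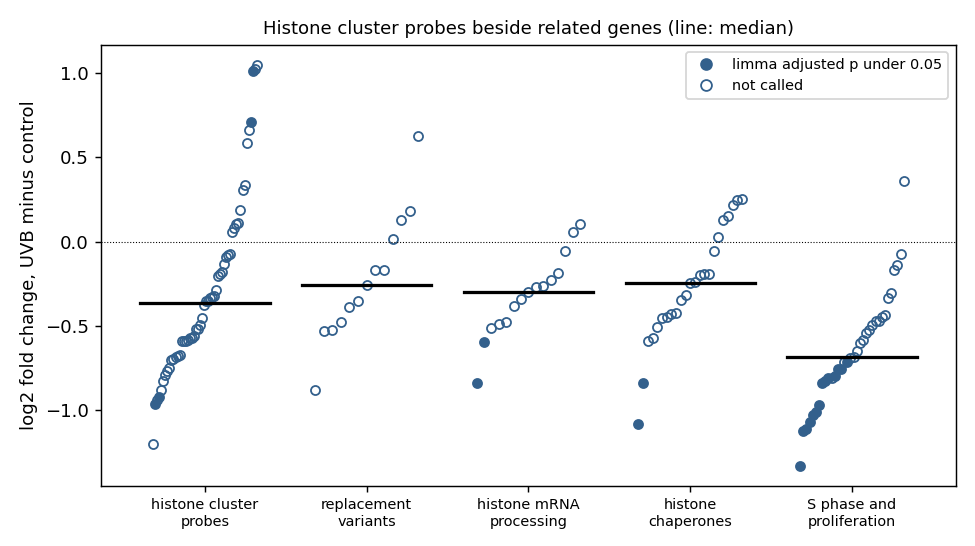
Log2 fold change (UVB minus control, y axis) of the 52 histone cluster probes and of the tested genes of 4 related lists, each at its highest-level probe, filled where the limma adjusted p was under 0.05, with a line at the median. Medians run from -0.25 for chaperones to -0.69 for S phase and proliferation genes, and the histone cluster probes lie at -0.36 with the widest upward tail.

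RNA levels of cell type markers differed as well, which in bulk skin does not tell cell numbers from RNA per cell. Over all probes 5.07% were called higher and 6.1% lower, and the marker counts stand beside these shares. Of 9 markers of the hair shaft and inner root sheath, 8 were called higher after UVB, and their summed signal, relative to the 75th percentile, was 16.5 to 19.7 in controls and 280 to 1111 in UVB mice. Krt33b, among those called, was well above background in 0 control and 3 UVB mice. It thus passed the filter only through the UVB group. Melanocyte markers had 4 of 5 called higher (2.64 to 2.94 against 16.8 to 25.8), dermal fibroblast markers 3 of 5 (4.80 to 11.3 against 16.4 to 24.4) and hair matrix markers 1 of 5 (7.76 to 7.81 against 11.6 to 18.9). Langerhans cell markers had 2 of 3 called lower (53.3 to 57.5 against 24.3 to 31.8), and T cell markers had 2 lower and 1 higher of 5 (16.9 to 21.1 against 10.98 to 16.7). The T cell marker called higher, Cd8a, also passed the filter only through the UVB group (0 control and 3 UVB mice well above background). Epidermal keratins and loricrin, which mark the labelled tissue, were bright in both groups (2321 to 2733 against 3102 to 3691, with 1 of 5 called higher). Adipocyte markers had 1 of 1 tested called higher (0.17 to 0.85 against 5.63 to 27.9), and endothelium (0 of 2 tested) and skeletal muscle (0 of 3 tested) had none called. All 3 muscle values were below 0 (median -1.23), with 1 lower at an unadjusted limma p under 0.05. The part of these cell types in the histone values was not tested.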

How the data were processed

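The authors deposited the scanner output of 6 arrays and a table of processed log2 values. Per the file headers, each spot's intensity is an output of the software Agilent Feature Extraction, version 10.7.1.1, and is not scaled between arrays, and probes carry mm9 positions. The deposited log2 table served as an alternative; the sources used here do not give its normalization by the authors. After removal of controls and outlier-flagged spots, replicate spots were averaged by probe, and the log2 processed signal minus the array's 75th percentile was fitted by probe with limma 3.58.1 in R 4.3.3 (lmFit, eBayes). The steps were tested on 5 simulated datasets with 200 changed probes in each. Of 2-fold changes 28.2% were called in the right direction and of 4-fold changes 71.2%, with a mean of 5.6 false calls. In the data 3772 of 33767 probes were called, many more than the 200 changed in a simulated dataset. The adjusted p depends on that number, so the shares found need not hold for the data. A probe that was not called is not shown to be unchanged. Each array was 1 mouse, per the labels.

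The histone genes, comparison lists and markers were chosen with earlier results of these data known. Named histone probes are those called, the highest and lowest fold change and highest level of each type, and genes with both signs; Hist1h1b, Hist1h1c, Hist2h3c1 and other further members were added after their values were seen. In the lists, up to 6 called genes and a few set by name are given, and others, such as H3f3a and Ccnb1, were added after their values were seen. All 49 gene names matched the RefSeq table. A probe was placed by comparing its start in the array's record with the RefSeq gene length, up to 1000 bases.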

Additional observations from a re-analysis of the deposited data

How the results depend on the processing

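The histone probes called moved from 2 lower and 2 higher to 4 and 4 with quantile normalization, 4 and 4 in the deposited table, 5 and 1 with median scaling, 15 and 6 with normexp and 12 and 4 with a trended, robust eBayes. They were 0 and 1 with no filter on dim probes, 6 and 4 with probes above background on all 6 arrays, and 1 and 3 with 1 probe per gene. Of 15 alternatives Hist2h3c2-ps was called in 12, Hist1h1a in 9, Hist2h2aa1 in 6 and the Hist1h2ak start probe in 6 of 14. Over all probes, normexp gave 3732 higher and 6811 in all, the robust eBayes 3185 lower, and no filter 1059 lower and 2259 in all, where 2059 lower and 3772 in all were called otherwise. The H2B median was 0.17 with normexp and 0.058 with the stricter filter, and the H1 median 0.12 with no filter, which adds the dim Hist1h1d probe. The second Hist1h4i probe turned to -0.024 with median scaling, and Hist1h2bg to 0.013 with normexp. Called replacement variants numbered 1 with quantile normalization, 5 with normexp and 3 with the robust eBayes. Called processing genes numbered 0 with no filter, 4 with the stricter filter and 4 with the robust eBayes, and called chaperones 9, 1 and 8 with normexp, no filter and the robust eBayes. The causes were not tested.

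Deviations from the group means of same-numbered mice correlated at -0.11, -0.27 and -0.095, so the numbers do not pair them. With the replicate number as a block, limma called 0 histone probes lower and 0 higher, 298 lower and 501 higher of all probes (799), 0 processing genes, 0 chaperones and 2 S phase genes.

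Leaving out 1 mouse at a time gave 0 to 1 histone probes lower and 0 to 1 higher, 411 to 1230 of all probes lower, 532 to 1099 higher and 943 to 2272 in all, 0 to 1 processing genes, 0 to 2 chaperones and 2 to 11 S phase genes. The H1 median ranged from -0.51 to -0.14, that of H2A from -0.44 to -0.23, of H2B from -0.071 to 0.062, of H3 from -0.72 to -0.43 and of H4 from -0.78 to -0.40. Hist1h4h ranged from -0.082 to 0.56 and the second Hist1h4i probe from -0.067 to 0.31. Of the 39 negative histone values 29 kept their sign in all alternatives, as did 9 of 13 positive ones. Dim probes (Hist1h2ae, Hist1h2ac, Hist1h2bp, Hist1h2bq, Hist2h2ab, Hist3h2bb-ps) were near background in at least 1 mouse, and 3 mice a group limit every p.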
